A study of Mus musculus with 32 samples.

Results

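Cytosolic sulfotransferases outside the bile acid sulfotransferase (*Sult2a*) family were measured in mouse liver. The members were 7 genes taken by name from the 54532 genes of the count table, *Sult1a1*, *Sult1b1*, *Sult1c2*, *Sult1d1*, *Sult1e1*, *Sult3a1* and *Sult5a1*. *Sult5a1* was picked because it fell in knockout mice and rose with SC-435 in these same samples, so its values in those comparisons are given as a description and were not tested. RNA was sequenced from the livers of 32 mice of the C57BL/6 strain at 12 weeks of age, 4 in each of 8 groups. Wild-type (WT) and *Cyp2c70* knockout (KO) females and males received chow or chow with 0.006% SC-435, about 11 mg/kg per day, from 3 weeks after weaning by the labels. The paper differs from the labels here, with the SC-435 diet begun at weaning, at 4 weeks of age, and given for 8 weeks. SC-435 blocks the ileal bile acid transporter, which returns bile acids from the gut, and *Cyp2c70* encodes the enzyme that makes the muricholic acids of mouse bile. The KO mice descend from 1 founder made with CRISPR-Cas9 that lacks exon 2 in all tissues, so the line is a single deletion. The labels name no other allele or agent in any group.

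Sulfotransferases of this kind transfer sulfate from the activated donor PAPS to hydroxyl or amino groups of hormones, neurotransmitters, drugs and dietary phenols. The sulfated products are more soluble and usually less active, and leave the liver in bile or blood. In mouse liver several of these enzymes are known to differ between the sexes, and nuclear receptors that sense bile acids and foreign compounds are known to control some of them.

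All 7 members are protein-coding genes on GRCm38. *Sult1b1* (chr5:87513339-87538195), *Sult1d1* (chr5:87554645-87569027) and *Sult1e1* (chr5:87575969-87591594) lie side by side on the minus strand within 78.26 kb, with no other protein-coding gene between them. *Sult1a1* (chr7:126672865-126676432), *Sult5a1* (chr8:123140192-123158315) and *Sult1c2* (chr17:53829637-53846339) are also on the minus strand, and *Sult3a1* (chr10:33857721-33879532) is on the plus strand. Their longest coding sequences run from 876 to 900 bases. Aligned pairwise, these were most alike between *Sult1d1* and *Sult1e1* (64.5% identical bases) and least alike between *Sult1d1* and *Sult5a1* (53.2%), and within the chromosome 5 group the lowest identity was 62.8%. In words of 50 bases, 6.15% of the *Sult3a1* transcript sequence also occurs in other genes, all of it in *Sult3a2*, and 7.36% of that of *Sult1a1* does, most of it in *Gm6939*. *Sult1a1* also overlaps *Sgf29*, *Sult5a1* overlaps *Gm20388* and *Sult3a1* overlaps the processed pseudogene *Gm47935*, each on the opposite strand. Whether the counting used strand is not given in the sources used here, so reads in those overlaps cannot be told apart.

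The promoters of the 3 chromosome 5 neighbours, of *Sult3a1* and of *Sult5a1* are printed because the former are neighbours whose values differ in direction between KO and WT females, and the latter had the lowest KO to WT ratios of group means. Each runs 5′ to 3′ on the gene's strand, from 250 bases before the RefSeq transcript start to 50 after it, on GRCm38.p6. Capitals mark matches on either strand to 5 motifs, the nuclear receptor half-site AGGTCA, the STAT5 site TTCNNNGAA, the HNF1 half-site GTTAAT, the HNF6 site ATTGAT and the TATA box TATAAA.
Sult1b1, chr5:87538146-87538445, minus strand: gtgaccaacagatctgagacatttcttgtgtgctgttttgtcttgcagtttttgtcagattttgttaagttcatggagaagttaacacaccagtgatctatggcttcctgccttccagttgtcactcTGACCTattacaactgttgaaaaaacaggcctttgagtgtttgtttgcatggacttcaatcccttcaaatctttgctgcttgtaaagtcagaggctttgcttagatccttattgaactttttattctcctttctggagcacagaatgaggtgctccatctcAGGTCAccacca
Sult1d1, chr5:87568957-87569256, minus strand: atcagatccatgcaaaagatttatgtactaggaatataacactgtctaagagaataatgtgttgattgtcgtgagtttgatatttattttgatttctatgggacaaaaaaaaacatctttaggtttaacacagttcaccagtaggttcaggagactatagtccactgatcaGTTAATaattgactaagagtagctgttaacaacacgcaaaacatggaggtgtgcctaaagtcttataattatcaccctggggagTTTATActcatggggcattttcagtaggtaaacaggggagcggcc
Sult1e1, chr5:87591562-87591861, minus strand: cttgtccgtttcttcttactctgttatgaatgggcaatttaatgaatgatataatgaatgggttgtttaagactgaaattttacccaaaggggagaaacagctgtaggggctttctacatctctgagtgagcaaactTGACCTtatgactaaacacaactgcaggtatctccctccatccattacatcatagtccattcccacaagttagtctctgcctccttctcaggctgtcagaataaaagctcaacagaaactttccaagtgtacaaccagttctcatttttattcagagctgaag
Sult3a1, chr10:33857472-33857771, plus strand: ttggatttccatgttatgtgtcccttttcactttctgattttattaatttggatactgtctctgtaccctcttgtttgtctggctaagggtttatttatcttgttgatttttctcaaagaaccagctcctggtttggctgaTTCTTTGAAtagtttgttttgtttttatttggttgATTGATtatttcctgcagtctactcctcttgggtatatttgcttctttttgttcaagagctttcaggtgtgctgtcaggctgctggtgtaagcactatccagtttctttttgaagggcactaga
Sult5a1, chr8:123158231-123158530, minus strand: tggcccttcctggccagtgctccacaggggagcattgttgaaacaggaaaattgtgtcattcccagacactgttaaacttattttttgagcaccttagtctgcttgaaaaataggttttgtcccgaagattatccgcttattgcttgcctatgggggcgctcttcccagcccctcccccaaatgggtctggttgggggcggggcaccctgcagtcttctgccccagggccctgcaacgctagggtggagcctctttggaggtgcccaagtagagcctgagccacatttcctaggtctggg

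*Sult1b1* held 2 half-sites and *Sult1e1* held 1, and 16.0% of the 27025 RefSeq promoters of this length hold at least 1. The promoter of a second RefSeq start of *Sult1b1* (chr5:87536173-87536472), not printed, held 0 matches to the motifs. *Sult1d1* held the HNF1 letters (7.2% of promoters) and, on the opposite strand, the TATA letters (14.2%). *Sult3a1* held a STAT5 match (8.47%) and an HNF6 match (7.76%). *Sult1a1*, not printed, also held the HNF1 letters, and no match was found for *Sult5a1* or *Sult1c2*. These matches describe letters and say nothing of binding.

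Library totals ran from 36476021 to 44771350 counts. Levels are in counts per 1e+06 (CPM) scaled by TMM factors. All values of hepatocyte albumin (*Alb*) were at or above 31600 CPM, and the gut marker *Cdx2* had at most 3 counts in any liver. Of the other gut markers listed, *Fabp2* read 16.4 to 55.4 CPM, *Vil1* at most 1.44 CPM and *Muc2* at most 0.317 CPM. *Cyp2c70* itself read 109 to 188 CPM in KO mice and 271 to 838 CPM in WT mice, without overlap. Replicate 1 of the male WT chow mice stood apart, with a TMM factor of 0.6219 and a mean correlation of 0.9182 with its group, so values without it stand beside the members' fold changes that use it, other than those within 1 SE of 0. In bulk liver, fewer cells of a type and less RNA per cell cannot be told apart.

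Per kilobase of gene length, *Sult1a1* was the most abundant member in WT females on chow at 252 ± 55.5 CPM per kb (SD, n = 4). *Sult3a1* followed at 117 ± 62.2, *Sult1d1* at 50.1 ± 7.15, *Sult1b1* at 8.30 ± 1.22, *Sult5a1* at 6.89 ± 3.66, *Sult1c2* at 2.64 ± 1.01 and *Sult1e1* at 1.09 ± 0.825. Of these neighbours, only *Sult1a1* with *Sult3a1*, and *Sult1d1* with *Sult1b1*, had ranges that did not overlap. In WT males on chow the order per kb was *Sult1a1* (141 ± 22.2), *Sult1d1* (31.4 ± 17.4), *Sult5a1* (9.91 ± 3.84), *Sult1b1* (9.26 ± 1.15) and *Sult1c2* (1.84 ± 0.657), with *Sult3a1* and *Sult1e1* near 0. There *Sult1d1*, *Sult5a1* and *Sult1b1* overlapped, and *Sult1a1* and *Sult1c2* each stood clear of their neighbours.

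**Figure D1:**
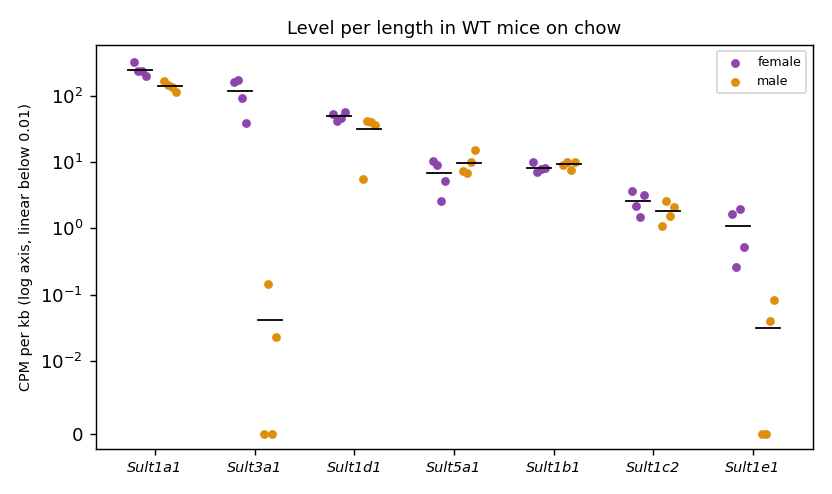
Level of each member per kilobase (CPM per kb, log axis that is linear below 0.01) in WT females and males on chow, 4 mice each, with the mean as a bar. *Sult3a1* lies near 117 in females and near 0 in males, *Sult1a1* lies higher in every female than in every male, and *Sult1b1*, *Sult1c2*, *Sult1d1* and *Sult5a1* overlap between the sexes.

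Adjusted p values come from the quasi-likelihood F test of edgeR, corrected by Benjamini-Hochberg across every gene tested, and a gene was called under 0.05. In females, KO mice on chow differed from WT mice in 0 of the 6 members tested (*Sult5a1* was left out), against 14.9% of all genes tested. At an unadjusted p under 0.05, 4 of these 6 differed, beside 4998 of the 16205 genes tested. DESeq2 called 3 of the 6 and limma's voom 3. All genes called ran from 1082 to 4265 over the alternative settings, so these counts cannot be set against the 14.9%. In males 0 of 4 tested were called (background 1.08%). Of these, 0 had an unadjusted p under 0.05, beside 2444 of 15862 genes, and 0 were called by DESeq2 or voom. SC-435 in KO mice raised 4 of 6 members tested in females (17.8%) and 3 of 5 in males (17.2%). Of the members raised in females, *Sult1e1* passed the count filter only through the treated mice. In KO against WT females on chow it passed only through the WT mice. Its part of those counts is therefore a description and not a test against the share of all genes. In WT mice SC-435 raised 2 of 7 in females (4.28%) and 0 of 5 in males (0.0394%). In these males 0 members were called by DESeq2 or voom and 0 had an unadjusted p under 0.05, beside 931 of 15211 genes. KO females on SC-435 differed from WT females on chow in 1 of 6 (16.0%), and males in 0 of 4 (0.208%). In these males 1 member, *Sult1b1*, had an unadjusted p under 0.05, beside 1269 of 15395 genes. DESeq2 or voom called the same member, and all genes called ran from 0 to 2858 over the alternative settings. Females and males on WT chow differed in 2 of 7 (1.49%). Both, *Sult3a1* and *Sult1e1*, passed the count filter only through the females, with at most 6 and 4 counts in a WT male. Their count is therefore a description and not a test against that share. None of the 4 tests of a difference between effects called a member, for the KO effect between the sexes (background 0.0235%), the SC-435 effect in KO between the sexes (0.211%), or the SC-435 effect between genotypes in females (2.64%) and in males (0.0906%). In that order, 1, 2, 4 and 2 members had an unadjusted p under 0.05. Beside them stood 1066 of 17026, 2131 of 17069, 3355 of 16882 and 2208 of 16555 genes. DESeq2 called 1, 0, 2 and 0 members, and voom 0, 1, 3 and 0. All genes called ran from 0 to 554, 6 to 332, 18 to 1881 and 6 to 468 over the alternative settings. The shares above are those of the main edgeR fit only. Without male WT chow replicate 1, the share of all genes called was 7.30% for KO against WT males on chow, 2.53% for SC-435 in WT males, 12.2% for treated KO against WT males and 9.53% between the sexes on WT chow, with 0, 0, 1 and 3 members called. It was then 0.431% for the KO effect between the sexes and 0.697% for the SC-435 effect between genotypes in males, with 0 members called in each. Female KO chow replicate 4 stood apart in member values. It had the highest *Sult3a1*, *Sult1b1*, *Sult1c2*, *Sult1a1* and *Sult5a1* of its group and the lowest *Sult1e1*. Its library did so less (TMM factor 1.072, mean correlation 0.976). Leaving it out is thus a choice made on the values compared, and results without it, here and below, are a description. Without female KO chow replicate 4 the share was 19.3% for KO against WT females on chow and 26.4% for SC-435 in KO females, with 2 and 5 members called. It was then 0.0749% for the KO effect and 1.06% for the SC-435 effect between the sexes, and 9.57% for the SC-435 effect between genotypes in females, with 0, 1 and 3 members called. Several of these counts rest on values close to the threshold, and the WT chow or KO chow mice are shared between the comparisons.

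**Figure D2:**
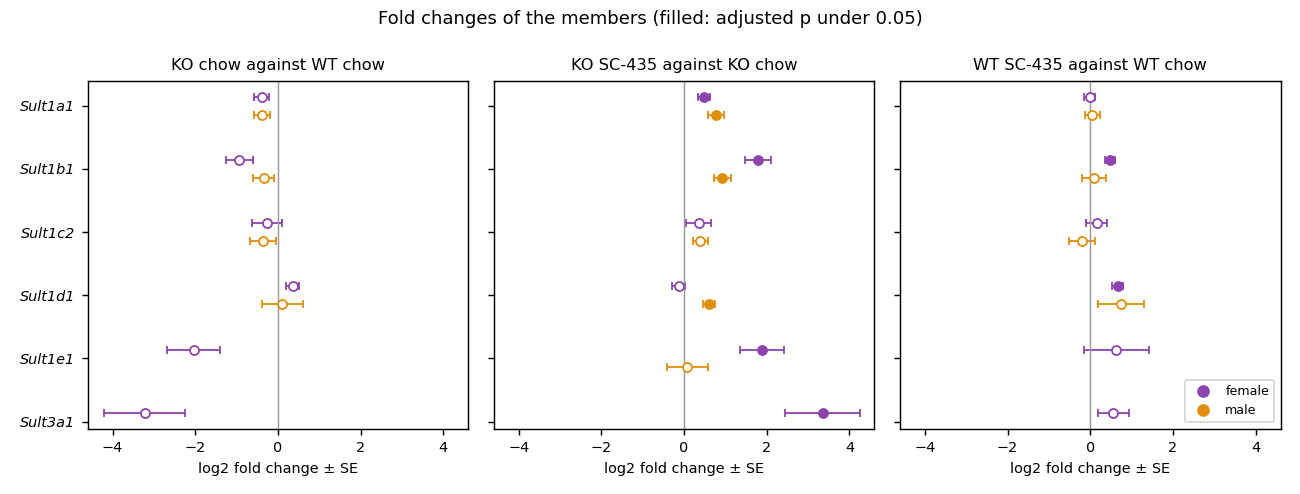
Log2 fold changes with SE of the 6 members other than *Sult5a1* in 3 comparisons, females in purple and males in orange, filled where the adjusted p was under 0.05 (n = 4 a group, genes with too few counts left out). Filled points stand only on the right, 7 of them in KO mice and 2 in WT females.

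Markers of other cells moved with the KO comparison. On chow, the summed level of 6 cholangiocyte markers was 36.1 to 69.3 CPM in WT and 131 to 289 CPM in KO females, with 4 of 6 called higher, and 5 of 6 macrophage markers and 3 of 7 stellate cell markers were also called higher. Among 7 hepatocyte markers 5 were called lower and 1 higher, and their sum was 93000 to 118000 CPM in WT and 57700 to 78100 CPM in KO females. With SC-435 in KO females, 6 of 6 macrophage, 2 of 6 cholangiocyte and 3 of 7 stellate cell markers fell, and 0 of 7 hepatocyte markers were called (sum 83300 to 97100 CPM). In males 4 of 6 cholangiocyte markers were higher in KO mice on chow (sum 24 to 34.7 CPM in WT and 144 to 1180 CPM in KO), with 0 macrophage, stellate cell or hepatocyte markers called. With SC-435 in KO males 4 of 6 cholangiocyte (sum 49.1 to 59.9 CPM), 5 of 7 stellate cell and 2 of 6 macrophage markers fell, and 0 of 7 hepatocyte markers were called. The stellate cell sum in KO males was 299 to 1140 CPM on chow and 146 to 227 CPM on SC-435. The part of these shifts in the members' values was not tested.

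*Sult3a1*, an amine sulfotransferase known as a female-specific transcript of mouse liver, ran from 0 to 253.8 CPM over the 32 mice. WT females on chow had 187.8, 199.6, 110.0 and 45.9 CPM in replicates 1 to 4. KO females on chow had 4.87, 1.03, 4.90 and 47.8 CPM. Of the 4 KO mice, 3 lay far below every WT mouse, and replicate 4 lay just above the lowest WT mouse, so the groups overlapped. The log2 fold change was −3.23 (SE 0.99, adjusted p = 0.0535), and without KO chow replicate 4 it was −5.22 (SE 0.67, adjusted p = 0.000702). With all mice kept, DESeq2 (adjusted p = 0.02245) and voom (0.00198) called it, and 5 of 8 alternative settings did in all. On SC-435, KO females had 168.8, 142.7, 142.3 and 143.2 CPM and WT females 253.8, 148.3, 177.2 and 223.4 CPM. All treated KO mice lay above every KO mouse on chow, and *Sult3a1* rose 10.2-fold between the group means (log2 fold change 3.36, SE 0.91, adjusted p = 0.0304). That call was lost without KO chow replicate 1 (adjusted p = 0.0700) or 3 (0.0666) and without KO SC-435 replicate 1 (0.0676), 2 (0.0704), 3 (0.0663) or 4 (0.0515), and without KO chow replicate 4 the log2 fold change was 5.38 (adjusted p = 2.49e-05). Treated KO females differed from WT females on chow by a ratio of 1.10 (adjusted p = 0.833), and WT females on SC-435 from those on chow by a log2 fold change of 0.56 (SE 0.38, adjusted p = 0.452). The difference of the SC-435 effect between KO and WT females was 2.80 on the log2 scale (SE 1.03, adjusted p = 0.143), and 4.81 (SE 0.64, adjusted p = 0.000374) without KO chow replicate 4. With all mice kept, voom called this difference (adjusted p = 0.0022), as 1 of 8 alternative settings.

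In males *Sult3a1* was at or near 0. WT males on chow had 0, 6, 0 and 1 counts, KO males on chow 0 in each library, WT males on SC-435 3, 3, 0 and 0, and KO males on SC-435 3, 3, 3 and 8. A floor of 3 counts per library was at most 0.117 CPM. Females exceeded males on WT chow 2858-fold in mean CPM, with a 95% exact Poisson interval of 1387 to 7109 from the 7 male counts, which covers the counting error of those counts only. The fitted log2 difference was 11.32 (SE 0.90, adjusted p = 0.000428). Without male WT chow replicate 1 the ratio was 2144 (interval 1040 to 5332) and the fitted difference 11.05 (adjusted p = 8.05e-05). Replicate 2 held 6 of the 7 male counts, and without it the ratio was 15717 (interval 2821 to 620781, from 1 count) and the fitted difference 13.37 (adjusted p = 0.0009003). On KO chow the female mean was at least 212-fold the male floor per library, and at least 52.1-fold without replicate 4, which carried most of that mean. With SC-435, KO males had 17 counts in all against 0 on chow, and each treated library held at least 3 counts, so these groups did not overlap. *Sult3a1* did not pass the filter in any comparison between male groups. With no filter on low counts, edgeR called it for SC-435 in KO males (adjusted p = 0.0274), and did not call it for KO against WT on chow (0.381) or SC-435 in WT males (0.968).

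*Sult1e1*, the estrogen sulfotransferase, was rare in every group. WT females on chow had 2.02, 0.329, 2.43 and 0.641 CPM, and KO females on chow 0.193, 0.620, 0.343 and 0.146 CPM. The ranges overlapped, and the log2 fold change of −2.04 (SE 0.65) had an adjusted p of 0.0614, or 0.0334 without WT chow replicate 2 (log2 fold change −2.37). It was called by DESeq2 (adjusted p = 0.00806) and by edgeR with no filter (0.0305), 2 of 7 alternative settings. Without KO chow replicate 4 it was −1.79 (adjusted p = 0.0967). KO females on SC-435 had 1.57, 2.02, 0.851 and 0.455 CPM, and *Sult1e1* rose by 1.89 on the log2 scale over KO chow (SE 0.54, adjusted p = 0.0362). Only the lowest treated mouse lay within the range of the untreated ones. This call was lost without KO chow replicate 1 (adjusted p = 0.0870) or 3 (0.0715), without KO SC-435 replicate 1 (0.0915), 2 (0.114) or 3 (0.0604), and with voom (0.0573). Without KO chow replicate 4 the log2 fold change was 1.67 (adjusted p = 0.0441). WT females on SC-435 ran from 0.617 to 5.88 CPM, with replicate 2 far above the rest. Against KO females on chow, which had 6 to 32 counts, *Sult1e1* passed the count filter only through the WT or treated females. Its adjusted p values in those comparisons are therefore a description.

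WT males on chow had 0, 0, 2 and 4 counts of *Sult1e1* in all, against 14 to 100 counts in WT females. The ratio of means was 35.3, with an exact Poisson interval of 16.2 to 96.3 from the 6 male counts, and the fitted log2 difference was 4.91 (SE 0.96, adjusted p = 0.0427). The call was lost without male WT chow replicate 2 (adjusted p = 0.119), 3 (0.152) or 4 (0.0798) and without female WT chow replicate 1 (0.128), 3 (0.124) or 4 (0.0620), and was kept without male replicate 1 (log2 difference 4.62, adjusted p = 0.0169). KO males on chow had 14, 11, 5 and 14 counts, each above every WT male in counts, though replicate 3 (0.101 CPM) lay within the WT range once scaled. *Sult1e1* did not pass the filter in that comparison and was not tested there in the main fit. With no filter on low counts, edgeR gave a log2 fold change of 2.42 (SE 0.87, adjusted p = 0.265). On KO chow the sexes were close, with a female to male ratio of 1.41 and overlapping ranges (0.146 to 0.620 CPM in females, 0.101 to 0.316 CPM in males). The counting interval of 1.05 to 1.94 covers the error of the 44 male counts only. It leaves out the error of the 65 female counts and the spread between mice, so it does not show a difference between the sexes. The difference of the KO effect between the sexes was −4.42 on the log2 scale (SE 1.11, unadjusted p = 0.00106 by edgeR, adjusted p = 0.366), and −4.13 (adjusted p = 0.139) without male WT chow replicate 1. DESeq2 called it (adjusted p = 0.0206), as 1 of 7 alternative settings.

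**Figure D3:**
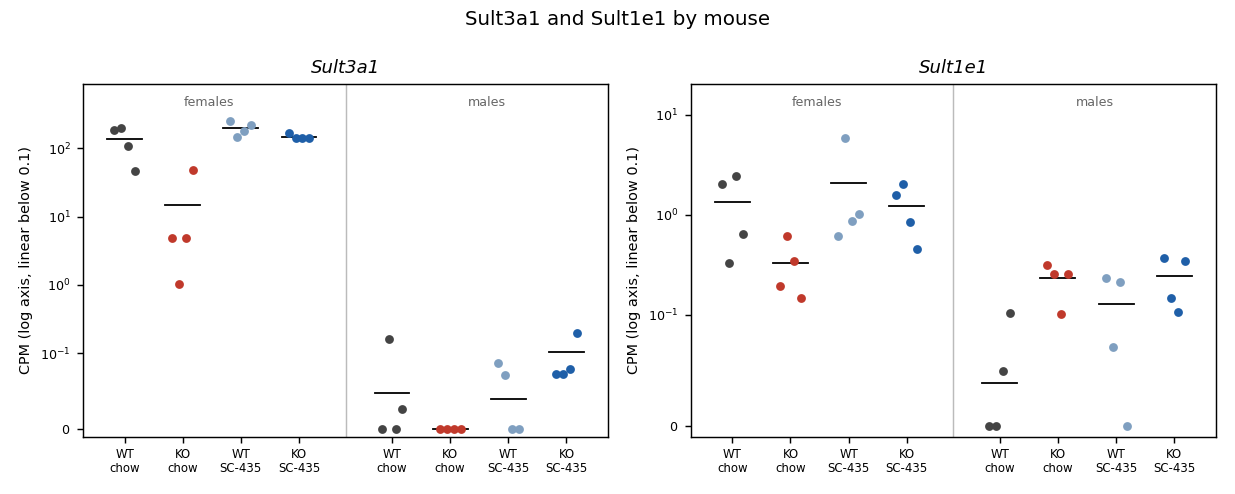
CPM of *Sult3a1* and *Sult1e1* in each of the 32 mice (log axis that is linear below 0.1), with group means as bars. *Sult3a1* falls to 1.03 to 4.90 CPM in 3 KO females on chow and stands at 142.3 to 168.8 CPM in the 4 treated KO females, while every male is at or below 0.1982 CPM.

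*Sult1b1*, which sulfates thyroid hormones and small phenols, rose with SC-435 in KO mice of both sexes. KO females on chow had 6.11, 9.84, 10.3 and 22.5 CPM and on SC-435 41.3, 47.2, 39.5 and 40.5 CPM. The groups did not overlap, and the log2 fold change was 1.79 (SE 0.32, adjusted p = 0.00691), a ratio of 3.45. KO males on chow had 22.2, 27.3, 18.1 and 11.9 CPM and on SC-435 39.3, 35.6, 38.3 and 37.3 CPM. Here too the groups stood apart, with a log2 fold change of 0.93 (SE 0.21, adjusted p = 0.0198). The male call was lost without KO chow replicate 3 (adjusted p = 0.0598) and without KO SC-435 replicate 1 (0.0582), 3 (0.0517) or 4 (0.0575). The effects in the sexes differed by 0.85 (SE 0.42, adjusted p = 0.423), and by 1.34 (adjusted p = 0.0432) without female KO chow replicate 4. With all mice kept, voom called this difference (adjusted p = 0.0197), as 1 of 8 alternative settings.

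Treated KO mice stood above WT mice on chow for *Sult1b1*. WT females on chow had 27.7, 19.7, 22.0 and 22.9 CPM, and every treated KO female lay above them (log2 fold change 0.87, SE 0.11, adjusted p = 0.000830). WT males on chow had 25.4, 28.4, 21.4 and 27.8 CPM, also below every treated KO male, with a log2 fold change of 0.56 (SE 0.14) and an adjusted p of 0.228, or 0.0108 without male WT chow replicate 1. In WT females SC-435 raised *Sult1b1* to 30.3, 30.0, 32.8 and 35.6 CPM, again with no overlap (log2 fold change 0.48, SE 0.11, adjusted p = 0.0425). That call rested on all libraries but female WT chow replicate 1, with an adjusted p of 0.0728 to 0.133 when any other was left out. WT males on SC-435 had 31.8, 35.2, 30.1 and 12.7 CPM, and replicate 4 lay below every untreated male (adjusted p = 0.940). KO females on chow were 0.528 times WT females (log2 fold change −0.93, SE 0.33, adjusted p = 0.0819), and without KO chow replicate 4, which lay within the WT range, −1.39 (SE 0.19, adjusted p = 0.00111). With all mice kept, DESeq2 (adjusted p = 0.0200) and voom (0.00573) called it, and 4 of 8 alternative settings did in all. In males the KO difference was −0.35 (SE 0.25, adjusted p = 0.529), with overlapping groups, and −0.37 (adjusted p = 0.373) without male WT chow replicate 1. The SC-435 effect in KO minus that in WT females was 1.32 on the log2 scale (SE 0.36, adjusted p = 0.0601), and 1.79 (SE 0.21, adjusted p = 0.000142) without KO chow replicate 4. With all mice kept, DESeq2 (adjusted p = 0.00905) and voom (0.00186) called it, and 3 of 8 alternative settings did in all.

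*Sult1a1*, the main phenol sulfotransferase of liver, moved less. KO females on chow had 240.6, 312.2, 244.7 and 367.3 CPM and on SC-435 397.8, 445.8, 425.2 and 351.2 CPM. One mouse of each group fell within the range of the other, and the log2 fold change was 0.48 (SE 0.15, adjusted p = 0.0470). KO males on chow had 162.4, 193.3, 164.4 and 118.2 CPM and on SC-435 233.5, 206.7, 342.5 and 302.7 CPM. The male groups did not overlap, and *Sult1a1* rose by 0.77 on the log2 scale (SE 0.19, adjusted p = 0.0262). The female call was lost without KO chow replicate 1 (adjusted p = 0.107), 2 (0.0846) or 3 (0.104) or KO SC-435 replicate 1 (0.0940), 2 (0.131) or 3 (0.113), and with library size scaling alone (0.0848). Without KO chow replicate 4 the female log2 fold change was 0.62 (adjusted p = 0.00408). The male call was lost without KO chow replicate 3 (0.0654) or KO SC-435 replicate 1 (0.0512), 3 (0.0674) or 4 (0.0786). WT females on chow had 499.9, 356.0, 356.4 and 306.1 CPM, and WT males 254.2, 218.5, 207.1 and 173.1 CPM. Every WT female lay above every WT male, but the log2 difference of 0.83 (SE 0.21) had an adjusted p of 0.114, or 0.00871 without male WT chow replicate 1 (log2 difference 0.92), and DESeq2 (0.0115) and voom (0.00102) called it. KO against WT mice on chow gave −0.39 in females (SE 0.18, adjusted p = 0.179) and −0.39 in males (SE 0.20, adjusted p = 0.386), or −0.31 (adjusted p = 0.257) without male WT chow replicate 1. The female value was −0.50 (adjusted p = 0.0734) without female KO chow replicate 4. SC-435 in WT mice gave ratios of 0.994 in females and 1.04 in males.

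*Sult1d1*, which sulfates catecholamines and related amines in mice, followed another order. WT females on chow had 132.4, 102.6, 115.6 and 142.2 CPM, and on SC-435 185.9, 233.1, 166.0 and 195.7 CPM. These groups did not overlap, and *Sult1d1* rose by 0.66 on the log2 scale (SE 0.13, adjusted p = 0.0238). KO females had 176.5, 191.4, 121.1 and 146.0 CPM on chow and 129.6, 179.5, 139.7 and 129.4 CPM on SC-435, a ratio of 0.911 (adjusted p = 0.596). The SC-435 effect in KO minus that in WT females was −0.79 on the log2 scale (SE 0.22, adjusted p = 0.0601), −0.91 (adjusted p = 0.0460) without KO chow replicate 3 and −0.83 (adjusted p = 0.0291) without replicate 4. With all mice kept, DESeq2 (adjusted p = 0.0163) and voom (0.0150) called it, and 3 of 8 alternative settings did in all. The rise in WT females was lost without WT chow replicate 2 (adjusted p = 0.0606) or 3 (0.0650) or WT SC-435 replicate 2 (0.0562) or 4 (0.0787). The log2 fold change of KO against WT females on chow was 0.36 (SE 0.16, adjusted p = 0.160). Voom (adjusted p = 0.0445) and edgeR with library size scaling (0.0471) called it, 2 of 8 alternative settings. This fold change was opposite in sign to those of *Sult1b1* and *Sult1e1* beside it on chromosome 5, which the main fit did not call.

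In males *Sult1d1* was called in KO mice. KO males on chow had 73.7, 92.7, 88.8 and 71.8 CPM and on SC-435 119.5, 99.6, 151.7 and 125.7 CPM. The groups did not overlap (log2 fold change 0.61, SE 0.14, adjusted p = 0.0200), and the call was lost without KO SC-435 replicate 1 (0.0528) or 4 (0.0612) and when all 32 libraries were fitted together (0.249). WT males on chow had 13.9, 104.8, 101.1 and 89.0 CPM, where replicate 1 is the library that stood apart. WT males on SC-435 had 162.0, 133.5, 155.7 and 62.5 CPM, and the log2 fold change was 0.74 (SE 0.55, adjusted p = 0.836), or 0.39 (SE 0.28, adjusted p = 0.503) without male WT chow replicate 1. The SC-435 effect in KO females minus that in KO males was −0.76 on the log2 scale (SE 0.23, adjusted p = 0.176).

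*Sult1c2*, an enzyme of phenols and foreign compounds, was called in 0 comparisons of the main fit, and its lowest unadjusted p by edgeR was 0.0509. Group means ran from 2.61 ± 0.379 CPM in KO males on chow to 5.43 ± 0.805 CPM in WT females on SC-435. Females averaged 4.87 ± 1.86 CPM and males 3.39 ± 1.21 CPM on WT chow, with overlapping ranges (log2 difference 0.51, adjusted p = 0.646, or 0.34, adjusted p = 0.551, without male WT chow replicate 1). KO males had 2.09 to 2.98 CPM on chow and 2.99 to 3.89 CPM on SC-435, just clear of each other (log2 fold change 0.39, SE 0.18, adjusted p = 0.142). In KO females the log2 fold change with SC-435 was 0.36 (SE 0.31, adjusted p = 0.455), and 0.74 (SE 0.22, adjusted p = 0.0340) without KO chow replicate 4, the highest mouse of that group at 6.99 CPM. With all mice kept, voom called it (adjusted p = 0.045), as 1 of 8 alternative settings.

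**Figure D4:**
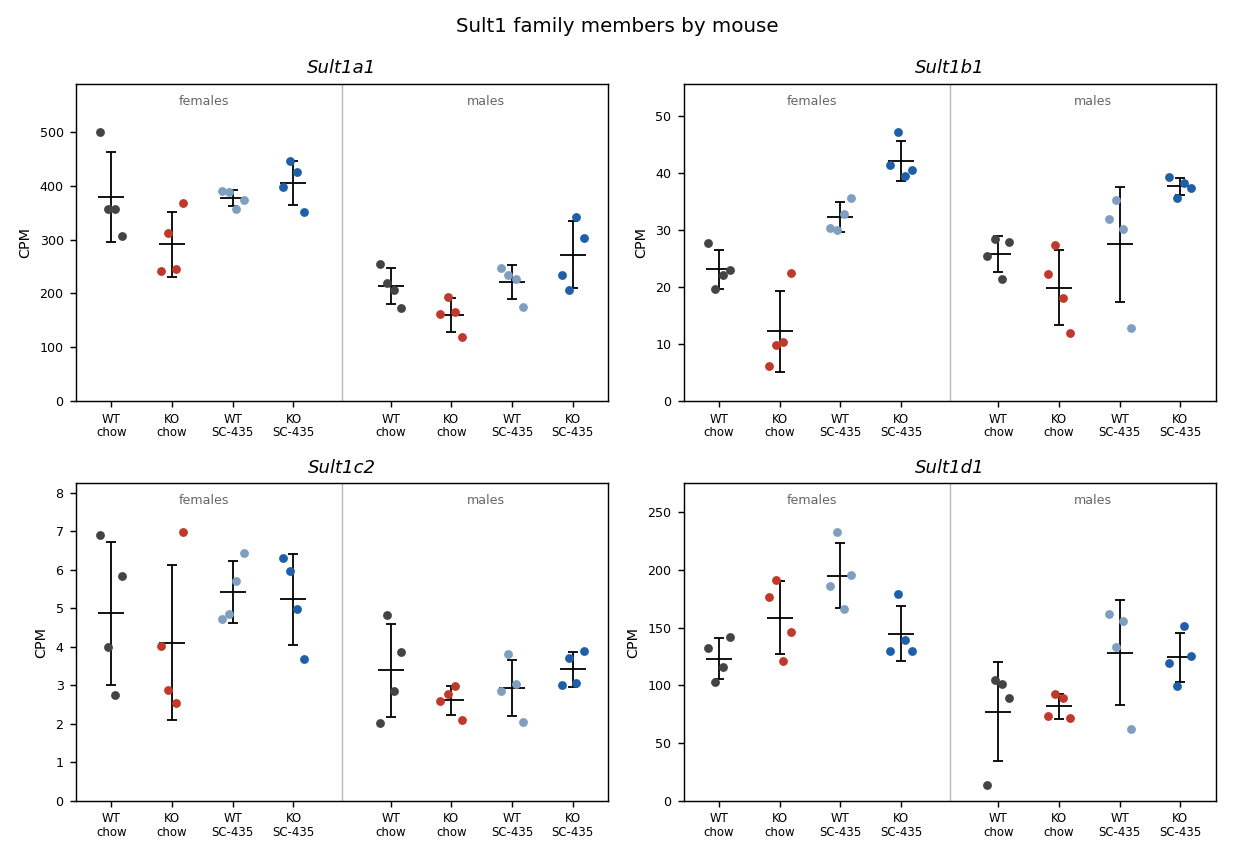
CPM of the 4 more abundant *Sult1* members in each mouse, with the mean and SD of 4 mice as bars. All treated KO mice stand above all KO mice on chow for *Sult1b1* in both sexes, and WT male replicate 1 on chow is the low *Sult1d1* value at 13.9 CPM.

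*Sult5a1*, whose substrates are little known, was selected on its KO and SC-435 values, which are described here without a test. WT females on chow had 46.9, 40.3, 11.5 and 23.0 CPM, and KO females on chow 1.33, 1.86, 4.01 and 7.67 CPM. WT males on chow had 32.4, 30.6, 44.8 and 67.4 CPM, and KO males on chow 7.74, 7.51, 1.23 and 4.49 CPM. Neither pair of groups overlapped, and the KO means were 0.122 times WT in females and 0.120 times in males (log2 fold changes −3.06 and −3.04, the latter −3.17 without male WT chow replicate 1). The female value was −3.65 without female KO chow replicate 4. On SC-435, KO females had 15.2, 13.6, 17.2 and 24.8 CPM and KO males 14.3, 24.6, 16.7 and 19.3 CPM. Each treated KO mouse lay above every KO mouse on chow of its sex, by 4.76-fold in females and 3.57-fold in males between means. The female log2 fold change with SC-435 was 2.27, and 2.90 without female KO chow replicate 4. Treated KO males lay below every WT male on chow, at 0.428 times the mean, and treated KO females at 0.582 times with overlapping ranges.

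The selection of *Sult5a1* did not use WT mice on SC-435, though their controls are the WT chow mice of the comparison that chose it. WT females on SC-435 had 44.5, 49.5, 39.3 and 52.9 CPM, a log2 fold change of 0.61 over chow (SE 0.35, adjusted p = 0.364), with overlapping ranges. WT males on SC-435 had 51.6, 53.5, 36.7 and 42.0 CPM, a ratio of 1.05 (adjusted p = 0.951). Females and males on WT chow overlapped as well (log2 difference −0.53, SE 0.43, adjusted p = 0.691, or −0.65, adjusted p = 0.382, without male WT chow replicate 1). Ordered by mean, *Sult5a1* was at 43.8 to 46.5 CPM in WT males on either diet and WT females on SC-435, at 30.4 CPM in WT females on chow, at 17.7 and 18.7 CPM in treated KO mice and at 3.72 and 5.24 CPM in KO mice on chow. Among KO groups the sexes overlapped on each diet.

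**Figure D5:**
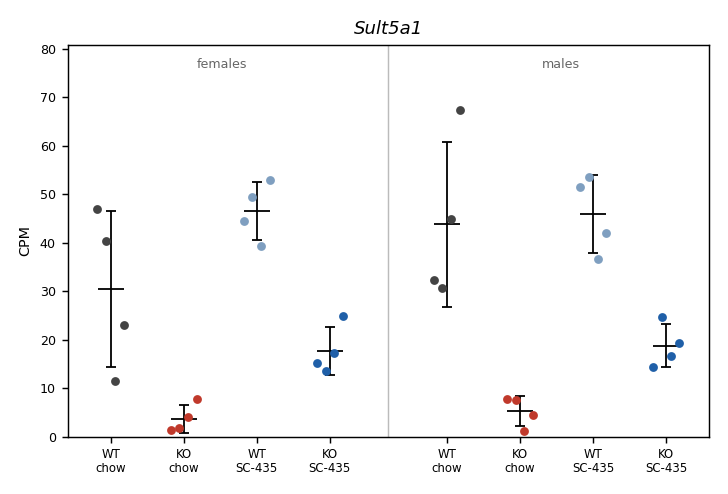
CPM of *Sult5a1* in each of the 32 mice, with the mean and SD of 4 mice as bars. KO mice on chow lie at or below 7.74 CPM, treated KO mice between 13.6 and 24.8 CPM and WT mice from 11.5 to 67.4 CPM.

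Other genes of the sulfation pathway were described by lists. Of 6 further cytosolic sulfotransferases in the table, 1 had enough counts to be tested between groups, *Sult3a2*, the neighbour of *Sult3a1*, and a second, *Sult2b1*, only in the 2 differences of effects between the sexes, where neither was called. Both are named after their values were seen. *Sult3a2* was lower in KO than WT females on chow (log2 fold change −5.20, SE 1.12, adjusted p = 0.0135), rose with SC-435 in KO females (4.68, SE 0.79, adjusted p = 0.00563) and had 0 counts in all males. KO females on chow had 0 to 32 counts of it, so *Sult3a2* passed the count filter only through the WT or treated females. Its adjusted p values there are therefore a description. Of 16 tested genes for sulfate activation, transport and removal, 5 were called higher with SC-435 in KO females and 5 in KO males, with 0 called lower, beside 17.8% and 17.2% of all genes called (list medians 0.12 and 0.22, all genes −0.02 and −0.03 on the log2 scale). Called higher in both sexes were *Csad*, which makes hypotaurine for taurine synthesis (log2 fold change 2.82, SE 0.19, adjusted p = 0.000182 in females and 2.95, SE 0.23, adjusted p = 0.000191 in males), and the sulfate transporter *Slc26a1* (0.74 and 0.63, adjusted p = 0.0144 and 0.0102). *Csad* was counted in this list although it belongs to taurine synthesis and not to the sulfate steps named. KO against WT mice on chow called 1 of the 16 higher and 1 lower in females and 0 in males, beside 14.9% and 1.08% of all genes called.

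Of 21 tested regulators linked to sulfotransferase genes, SC-435 in KO mice called 3 higher and 1 lower in females, and 2 higher and 3 lower in males, beside 17.8% and 17.2% of all genes called. The bile acid receptor *Nr1h4* rose in females (log2 fold change 0.76, SE 0.11, adjusted p = 0.00319) and males (0.45, SE 0.09, adjusted p = 0.0127), and so did *Ahr*, the receptor for dioxins and other aromatic compounds (0.75, adjusted p = 0.0150, and 0.74, adjusted p = 0.0429). The male *Ahr* call was lost without KO chow replicate 1 (adjusted p = 0.0578) or 3 (0.0924) and without KO SC-435 replicate 1 (0.0910), 3 (0.0922) or 4 (0.0804). On chow, KO females had 4 of 21 called lower and 0 higher, and KO males 0 lower and 1 higher, beside 14.9% and 1.08% of all genes called. No regulator or sulfate gene was called in the same direction in both sexes on chow.

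The genes most like each member over the 32 mice, by Pearson's r of log2(CPM + 0.5) among 12969 genes, are given as a description, since mice of a group share sex, genotype and diet. For *Sult3a1* they were *Cyp2b13* (r = 0.977), *Cyp3a41b* (0.971) and *Cyp3a41a* (0.969), and for *Sult1a1* *Maob* (0.933), *Cyp2b10* (0.919) and *Cyp2c68* (0.901). *Sult1b1* was nearest to *Gm40438* (0.909), *Nubpl* (0.903) and *Car3* (0.894), *Sult1d1* to *Ttpa* (0.923), *Bche* (0.915) and *Kif16b* (0.905), and *Sult1c2* to *Dhrs7* (0.790), *Gm29920* (0.776) and *Vldlr* (0.774). *Sult5a1* was nearest to *4933404O12Rik* (0.885), *Npr2* (0.879) and *Arhgap26* (0.870). No member was among the 3 nearest genes of another member. Among members, *Sult1a1* and *Sult3a1* were most alike (0.830) and *Sult1d1* and *Sult5a1* least (−0.00845), and the chromosome 5 neighbours *Sult1b1* and *Sult1d1* had an r of 0.139. *Sult1e1*, with a mean under 1 CPM, was left out.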

How the data were processed

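Poly(A) RNA from frozen liver was sequenced by the authors, and the deposited table gives raw counts per gene for each of 32 mice. Per the labels' processing notes, the tools were HISAT2 2.0.5 and featureCounts 1.5.0-p3 on mm10. The annotation and strand setting are not given in the sources used here. The deposited FPKM values and the authors' DESeq2 1.20.0 comparisons (fold changes and p values) were not used here.

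Groups were formed from the labels (sex, genotype, diet). Counts were filtered by filterByExpr (minimum count 10, total 15), TMM normalized and tested with edgeR 4.0.16 (glmQLFit, glmQLFTest; R 4.3.3) in the whole table. The SE is the log2 fold change divided by the square root of F. Differences between effects were tested as interactions on 16 libraries. Fold changes within 1 SE of 0 are given as ratios of mean CPM or by their p alone. Gene symbols are as in the table; promoters came from RefSeq (7 of 7 members found) and transcripts from GENCODE for GRCm38. The members and lists were chosen with earlier results of these data known. All members were named, list genes only where called alike in both sexes (KO against WT on chow, or SC-435 in KO), with *Sult3a2* and *Sult2b1* as exceptions named after their values were seen, and the 3 most similar genes of each member with a mean of at least 1 CPM. The labels do not say that replicates are separate litters or cages, so p values measure the spread between these mice. In 48 pairs of libraries within groups, counts differed beyond sampling noise (lowest chi-square per gene 20.3). The alternatives were other size factors, library size only, DESeq2 1.42.0, voom of limma 3.58.1, no filter, a mean of 50 counts, a replicate block, all 32 libraries in 1 fit, a fold beyond 1 on the log2 scale, and leaving out each library. The edgeR script was tested on simulated data.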

Additional observations from a re-analysis of the deposited data

Results flagged for a closer look

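A gap test for a single mouse set apart from the other 3 of its group was applied to the members' CPM in 54 groups, and 5 passed Dixon's critical value. Chance alone passes about 1 group in 20. The most consequential was *Sult3a1* in KO females on chow, where replicate 4 had 47.84 CPM and the gap made up 0.917 of the range. The same gene in KO females on SC-435 had a highest value of 168.8 CPM in replicate 1 (0.967 of the range). *Sult1e1* in WT females on SC-435 had 5.876 CPM in replicate 2 (0.926). In males *Sult3a1* had its highest value at 0.1642 CPM (6 counts) in WT chow replicate 2 and at 0.1982 CPM (8 counts) in KO SC-435 replicate 4, both near the floor of counting. No cause was tested for any of these mice.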

How the results depend on the processing

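Counts of members called moved as follows. The number of all genes called moved as well, within the ranges given at the end. These member counts are therefore a description, without a share of all genes beside each. KO against WT females on chow, with 0 called, gave 2 with library size only, 3 with DESeq2, 3 with no filter, 3 with voom and 2 with all 32 libraries in 1 fit, and 0 to 2 without 1 library. SC-435 in KO females (4) gave 2 with all 32 libraries and 1 to 5 without 1 library. SC-435 in KO males (3) gave 4 with no filter (*Sult3a1* added), 2 with the replicate block or all 32 libraries, 0 with a fold beyond 1 and 0 to 3 without 1 library. SC-435 in WT females (2) gave 0 with the replicate block, all 32 libraries or a fold beyond 1, and 0 to 2 without 1 library. Treated KO against WT chow gave 0 in females (1) with all 32 libraries or a fold beyond 1, and 1 in males (0) with DESeq2 or voom and 0 to 1 without 1 library. Females against males on WT chow (2) gave 1 with a mean of 50 counts or the replicate block and 1 to 3 without 1 library. The sex difference of the KO effect (0) gave 1 with DESeq2, and that of the SC-435 effect (0) gave 1 with voom and 0 to 1 without 1 library. The genotype difference of the SC-435 effect in females (0) gave 1 with library size only, 2 with DESeq2, 1 with no filter, 3 with voom and 0 to 3 without 1 library. No fold change printed for a member, *Sult3a2*, *Csad*, *Slc26a1*, *Nr1h4* or *Ahr* turned its direction under these settings. The cause was not tested.

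The replicate numbers were not treated as pairs, since the lowest same-number correlation was at or under 0.0223 in every comparison. The highest was 0.332, between the sexes on WT chow. In KO against WT males on chow, 3 of 4 numbers matched best with their own. This check cannot exclude shared litters, cages or processing. The replicate block ended the calls of *Sult1a1* with SC-435 in KO females (adjusted p = 0.0812 by edgeR) and males (0.0662), of *Sult1b1* (0.0681) and *Sult1d1* (0.0571) with SC-435 in WT females, of *Sult1e1* between the sexes (0.0907), of *Sult3a2* in KO against WT females (0.0581) and of *Ahr* in KO males (0.111). Fitting all 32 libraries together ended the calls of *Sult1a1* (0.0977) and *Sult1e1* (0.111) with SC-435 in KO females, of *Sult1b1* (0.613) and *Sult1d1* (0.505) with SC-435 in WT females, of *Sult1b1* in treated KO against WT females (0.0652), of *Sult1d1* in KO males (0.249) and of *Ahr* in KO females (0.127) and males (0.0952). Library size scaling ended the calls of *Nr1h4* (0.0715) and *Ahr* (0.0892) in KO males.

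Over the settings other than leaving out a library, all genes called ran from 1082 to 4265 for KO against WT females on chow (2411 as reported) and from 17 to 4037 in males (172). They ran from 948 to 4846 for SC-435 in KO females (2906), 1031 to 4220 in KO males (2744), 173 to 1419 in WT females (674) and 0 to 1593 in WT males (6). Treated KO against WT chow ran from 624 to 3578 in females (2546) and 0 to 2858 in males (32), and the sexes on WT chow from 134 to 2661 (232). Tests of a difference between effects ran from 0 to 554 (4), 6 to 332 (36), 18 to 1881 (445) and 6 to 468 (15), in the order of the report. Without 1 library, the lowest and highest counts were 1201 and 3197 for KO against WT in females and 10 and 1196 in males, 1287 and 4403 for SC-435 in KO females, 985 and 3370 in KO males, 159 and 774 in WT females and 1 and 394 in WT males. They were 1456 and 3174 for treated KO against WT in females, 10 and 1923 in males, and 117 and 1515 for the sexes on WT chow. Library size scaling moved the median of all genes by over 0.1 on the log2 scale in some comparisons, for example to 0.17 in females and 0.29 in males for KO against WT on chow. At 36476021 counts or more per library, genes near 0 in males (*Sult3a1*, *Sult1e1*) were limited by counting.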
